A study of Homo sapiens with 8 samples.

Results

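The G2 and M phase genes encode the proteins that take a cell from the end of DNA replication through mitosis to the division of its cytoplasm. 42 genes of this programme were named by symbol and not by a limit on the measured values. They were chosen with earlier results of these data known, so shares set beside those of all genes describe the list and test nothing. Of the 42, 41 had a probe set that carried their symbol alone, among 18377 such genes on the array. The exception was CENPA, the centromeric histone H3 variant, whose only probe set also carries the symbol SLC35F6. That shared probe set read -0.24 on the log2 scale after the PCA pollutants relative to the evening controls, and CENPA is left out of the counts that follow. Each other gene is represented by its probe set with the highest mean signal, and all 41 passed the signal minimum of 30 in every comparison.

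Entry into mitosis is driven by the kinase CDK1 bound to cyclin B, and exit by the anaphase-promoting complex, which marks cyclin B and securin for destruction. Most of these genes are transcribed in a wave that peaks in G2 and M phase and are kept low in resting cells. Their promoters commonly carry CCAAT boxes, read by the factor NF-Y, and a cell cycle homology element, read by MuvB complexes that act as a repressor (DREAM) in resting cells and as an activator, with B-MYB and FOXM1, in G2. Their mRNA levels in a culture are often read as a sign of how many cells are dividing.

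The cells were A549, a human lung adenocarcinoma line with features of alveolar type II epithelium. They were grown to confluence on collagen-coated membranes, and the medium above them was taken off just before exposure. In an outdoor chamber, a synthetic mix of urban hydrocarbons and nitrogen oxides was exposed to sunlight, and cells met its gases for 4 hr either in the morning (primary pollutants, the fresh urban mix of the labels) or in the evening (photochemically altered, PCA, pollutants, the aged urban mix). Each exposure had its own unexposed control, a morning control or an evening control, kept in humidified air per the labels and in incubator air per the methods, and RNA was taken 9 hr after exposure. Each of the 4 groups was measured on 2 arrays. All 8 arrays came from 1 cell line, and nothing in the sources used here states that a group's arrays came from separate runs, so the p-values below measure the spread between arrays of a group, and mixture, time of day and run cannot be told apart. Signals of the 10 epithelial and A549 markers measured ran from 6.08 to 14.1 on the log2 scale, with the keratins KRT8 and KRT18 at 13.5 to 14.1. The 10 blood, vessel and connective tissue markers measured ran from 4.08 to 9.85. Among them the leukocyte marker PTPRC was at 4.08 to 4.51, under the signal minimum, while CD68 was at 9.47 to 9.85 and COL1A1 at 7.95 to 8.44. The 8 alveolar type II markers measured lay between 5.15 and 7.77, with the surfactant genes SFTPB and SFTPC at 6.0 to 6.59. The arrays' values are bulk measurements, in which fewer cells in G2 and M phase and less of an mRNA per cell cannot be told apart.

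The promoters are shown because many of these genes carry these elements. RefSeq promoter windows, from 250 bases before to 50 after the transcript start in GRCh38.p14, were at hand for 36 of the 42 genes (43 windows) and were searched on both strands for the CCAAT box and for the letters TTTGAA and TTCGAA of the cell cycle homology element, each counted on its own even where matches shared bases. CCAAT was found in 76.7% of the 43 windows, against 34.6% of all 35116 promoter windows. TTTGAA or TTCGAA was found in 69.8% against 16.4%, and CCAAT together with either of them in 58.1% against 6.38%. A match is a run of letters and not a measured binding site. The 200 bases before the start are given below, 5′ to 3′ on the gene's strand, for the 4 genes with the lowest adjusted p after the PCA pollutants and a window and for ECT2, whose log2 difference was the only one above 0. Capitals mark the CCAAT box, which reads ATTGG where it lies on the other strand, and the homology element TTTGAA, which in that case is printed as TTCAAA.
ASPM, chr1:197146670-197146869, minus strand: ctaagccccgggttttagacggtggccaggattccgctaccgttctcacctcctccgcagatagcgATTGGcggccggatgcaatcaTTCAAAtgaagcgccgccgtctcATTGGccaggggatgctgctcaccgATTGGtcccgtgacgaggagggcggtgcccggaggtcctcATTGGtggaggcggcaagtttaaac
NCAPD2, chr12:6493902-6494101, plus strand: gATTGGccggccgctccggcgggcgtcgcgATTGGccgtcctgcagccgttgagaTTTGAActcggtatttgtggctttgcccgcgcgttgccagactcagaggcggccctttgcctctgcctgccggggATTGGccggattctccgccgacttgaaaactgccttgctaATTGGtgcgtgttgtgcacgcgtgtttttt
CENPF, chr1:214602995-214603194, plus strand: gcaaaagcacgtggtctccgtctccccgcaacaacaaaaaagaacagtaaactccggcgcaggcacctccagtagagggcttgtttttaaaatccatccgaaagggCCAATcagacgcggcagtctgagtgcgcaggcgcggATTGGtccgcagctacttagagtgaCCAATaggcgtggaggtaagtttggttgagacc
KIF20A, chr5:138178912-138179111, plus strand: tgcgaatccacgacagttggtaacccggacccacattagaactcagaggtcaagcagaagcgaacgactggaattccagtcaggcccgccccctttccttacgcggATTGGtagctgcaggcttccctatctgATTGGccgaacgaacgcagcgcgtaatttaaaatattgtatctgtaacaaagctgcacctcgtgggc
ECT2, first of 2 windows, chr3:172750526-172750725, plus strand: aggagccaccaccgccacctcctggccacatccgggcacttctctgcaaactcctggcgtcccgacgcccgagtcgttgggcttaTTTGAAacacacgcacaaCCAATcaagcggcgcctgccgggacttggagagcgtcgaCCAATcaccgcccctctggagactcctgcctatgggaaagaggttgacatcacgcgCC
ASPM and NCAPD2 each held 4 CCAAT boxes and 1 TTTGAA before the start. CENPF held 3 CCAAT boxes before the start, and a CCAAT box and a TTTGAA that begin 13 and 41 bases after it. KIF20A held 2 CCAAT boxes and neither letter run of the homology element. ECT2 held both kinds of element, with 2 CCAAT boxes and 1 TTTGAA before the start. The CC in capitals at the end of the ECT2 stretch begins a further box that runs across the start, and another TTTGAA begins 35 bases after the start.

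**Figure D1:**
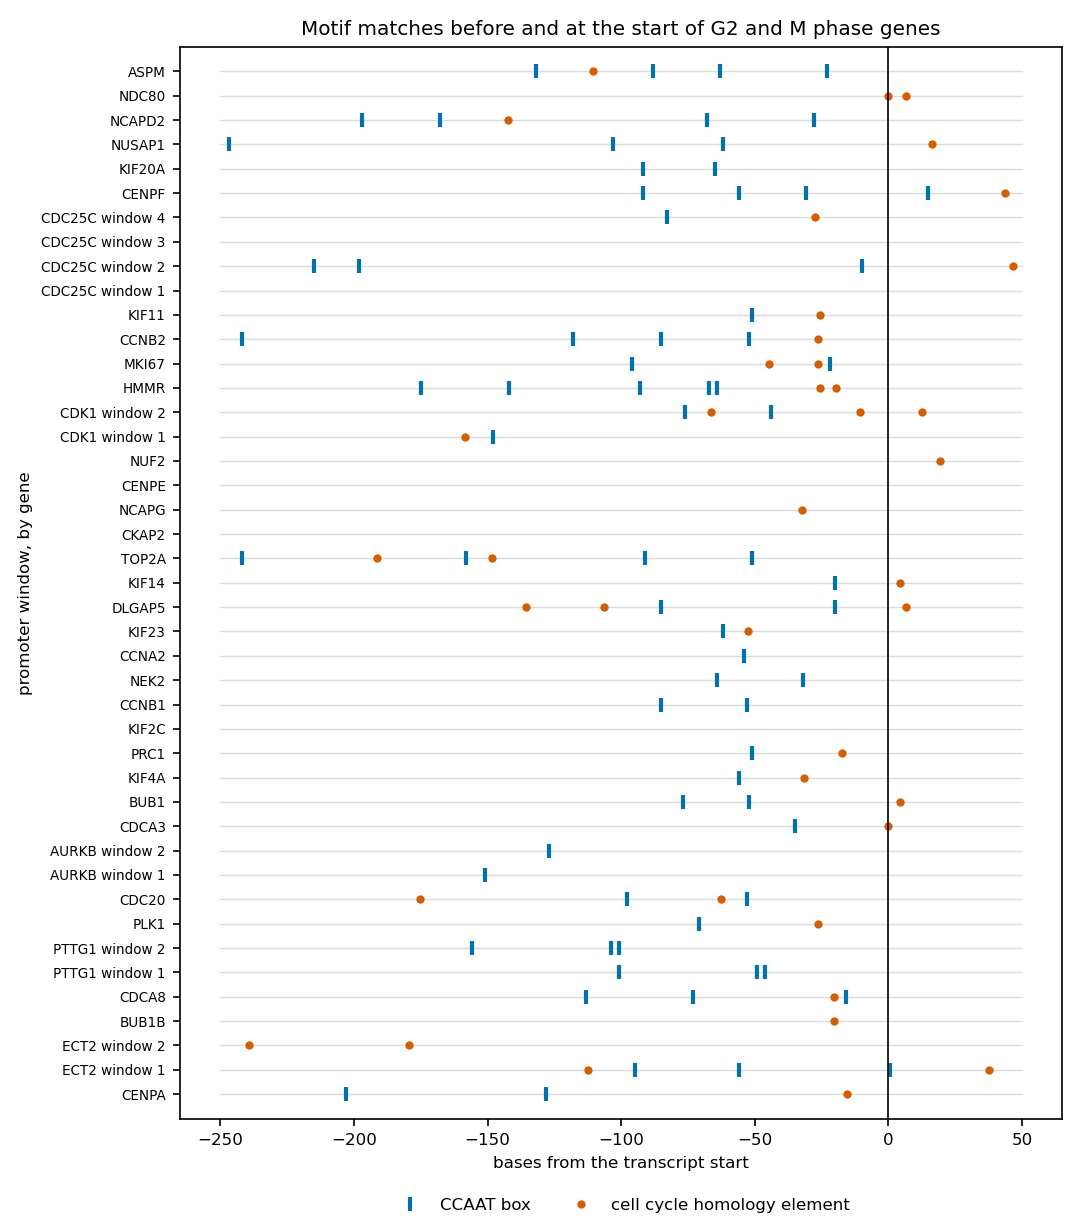
Positions of CCAAT boxes (blue bars) and of TTTGAA or TTCGAA (orange dots) in the 43 promoter windows of 36 genes, on either strand, in bases from the transcript start (black line). Windows are ordered by the gene's log2 difference after the PCA pollutants, with the lowest at the top and CENPA, which has no value of its own, at the bottom.

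After the PCA pollutants, mRNA levels of 7 of the 41 G2 and M phase genes fell and none rose. A gene was said to fall or rise where limma's adjusted p was under 0.05 and the fold at least 1.5. Among all 17470 genes tested, 2.66% fell and 0.876% rose. The genes that fell were ASPM, NDC80, NCAPD2, NUSAP1, KIF20A, CENPF and CDC25C, and their losses ran from 1.53-fold to 1.83-fold. The study itself, from the same arrays, lists all 7 as lower after the PCA pollutants. Without the fold limit, 20 of the 41 were lower with an adjusted p under 0.05 (14.1% of all genes) and 1, ECT2, was higher (5.72%). At an unadjusted p under 0.05 the numbers were 32 lower (22.5% of all genes) and 1 higher (14.5%). The log2 difference was below 0 for 40 of the 41, against 50.3% of all genes. Both PCA arrays were below both evening controls for 38 (36.6% of all genes) and above them for 1 (31.7%), and the groups overlapped for AURKA and UBE2C. The median log2 difference was -0.32 over the 41 genes and -0.0017 over all genes. The deposited scale bears on this count. With the arrays scaled to ribosomal protein genes, the median of all genes moved to 0.14 and that of the 41 genes to -0.17, 36 of the 41 stayed below 0, and ASPM and NDC80 alone kept the call, while with quantile and cyclic loess normalization 4 and 3 genes kept it.

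**Figure D2:**
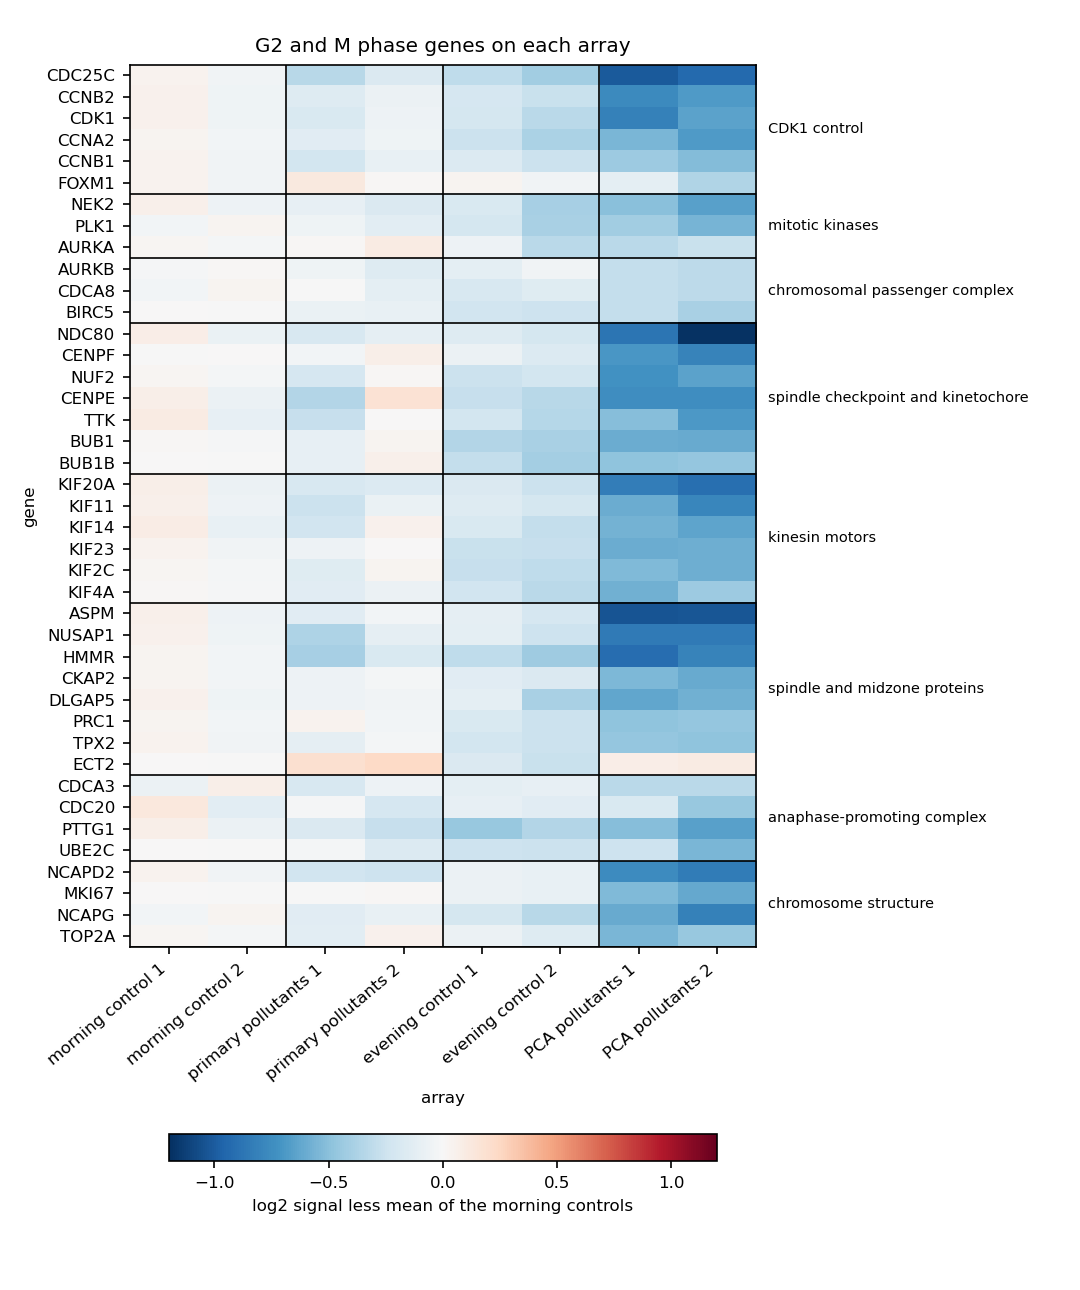
Signal of each of the 41 genes on each of the 8 arrays, as log2 signal less the mean of the 2 morning controls (blue lower, red higher), with genes grouped by role. The PCA columns are the darkest blue in nearly every row, the evening control columns are paler blue, and ECT2 stands apart with values above 0 on the primary and PCA arrays.

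Among the proteins that control CDK1, the phosphatase CDC25C, which removes inhibitory phosphates from CDK1, fell. CDC25C signals were 7.59 and 7.48 on the log2 scale on the evening controls and 6.89 and 6.96 on the PCA arrays, against 7.94 and 7.85 on the morning controls and 7.56 and 7.72 on the primary arrays. Its log2 difference after the PCA pollutants was -0.61 (SE 0.09, n = 2 arrays a group, limma adjusted p = 0.00489). It was the smallest loss among the 7, and it missed the 1.5-fold limit when evening control 1 (-0.56) or PCA array 1 (-0.58) was left out. CDK1 itself read 9.16 and 9.05 on the evening controls and 8.56 and 8.73 on the PCA arrays, with 9.42 and 9.32 on the morning controls and 9.19 and 9.31 on the primary arrays. The 2 PCA arrays were the lowest of the 8 for CDK1, and the log2 difference of -0.46 (SE 0.09, limma adjusted p = 0.0152) was under the fold limit. CCNB1, the cyclin B that binds CDK1 at mitotic entry, read 11.00 and 10.90 on the evening controls, 10.72 and 10.64 on the PCA arrays, 11.21 and 11.12 on the morning controls and 10.94 and 11.07 on the primary arrays. Its difference of -0.27 (SE 0.08) had a limma adjusted p of 0.0545. The other cyclins were CCNB2 at -0.49 and CCNA2 at -0.30, and FOXM1, a transcription factor that drives many of these genes, was at -0.23 with an adjusted p of 0.131 in the limma fit.

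The mitotic kinases and the chromosomal passenger complex held no gene that fell, and their medians, -0.18 and -0.13, were the nearest to 0 of the 8 roles. PLK1, a kinase of mitotic entry, spindle assembly and cytokinesis, read 10.26 and 10.08 on the evening controls and 10.05 and 9.91 on the PCA arrays, with 10.44 and 10.50 on the morning controls and 10.42 and 10.34 on the primary arrays. The PLK1 values of the evening and PCA groups lay next to each other without overlap, and the difference was -0.18 (SE 0.09, limma adjusted p = 0.176). AURKA, the kinase of spindle poles, was at -0.11, and NEK2, a kinase of centrosome separation, at -0.28. In the passenger complex, which corrects faulty spindle attachments, the kinase AURKB was at -0.21 and its partner CDCA8 (borealin) at -0.13. BIRC5 (survivin), another subunit, read 9.21 and 9.19 on the evening controls and 9.15 and 9.05 on the PCA arrays, against 9.45 and 9.43 on the morning controls and 9.36 and 9.36 on the primary arrays. Its log2 difference of -0.10 (SE 0.07, 95% interval from the moderated t distribution -0.26 to 0.06) was the one nearest to 0 among the 41 genes, and its second probe set was at 0.10.

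The kinetochore, where chromosomes meet microtubules, held 2 genes that fell. NDC80, a subunit of the complex that grips microtubules, read 7.02 and 6.96 on the evening controls and 6.30 and 5.99 on the PCA arrays, with 7.25 and 7.10 on the morning controls and 6.98 and 7.07 on the primary arrays. Of the 7 genes that fell, its PCA arrays lay farthest apart. The log2 difference was -0.84 (SE 0.11, a 1.79-fold loss, limma adjusted p = 0.00417). CENPF, a large protein of the outer kinetochore, read 9.91 and 9.82 on the evening controls and 9.28 and 9.18 on the PCA arrays, with 9.97 and 9.99 on the morning controls and 9.94 and 10.05 on the primary arrays. The 6 other CENPF values, from 9.82 to 10.05, were all above both PCA arrays (-0.64, SE 0.08, limma adjusted p = 0.00313). NUF2, the partner of NDC80 in the same complex, was at -0.44 (limma adjusted p = 0.0146), and the kinetochore motor CENPE was at -0.44 with a larger SE of 0.15 (limma adjusted p = 0.0814). The kinases of the spindle checkpoint, which delays anaphase until all chromosomes are attached, showed smaller differences: TTK was at -0.32, BUB1 at -0.23 and BUB1B at -0.13, none with an adjusted p under 0.05.

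Of the 6 kinesins, motors that slide, sort or shorten microtubules, KIF20A fell. KIF20A, which carries the passenger complex to the spindle midzone in anaphase, read 9.34 and 9.26 on the evening controls and 8.69 and 8.61 on the PCA arrays, against 9.59 and 9.44 on the morning controls and 9.33 and 9.36 on the primary arrays. Both PCA arrays were below every other array, and the log2 difference was -0.65 (SE 0.08, a 1.57-fold loss, limma adjusted p = 0.00315). KIF11, which pushes spindle poles apart, was at -0.51 (limma adjusted p = 0.0135) and passed the fold limit too when PCA array 1 was left out. The cytokinesis motors KIF14 and KIF23 were at -0.37 and -0.32, the microtubule depolymerase KIF2C at -0.27 and the chromosome arm motor KIF4A at -0.23.

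The spindle and midzone proteins held both the deepest loss and the only log2 difference above 0. ASPM, which focuses microtubules at spindle poles, read 9.61 and 9.51 on the evening controls and 8.69 and 8.69 on the PCA arrays, with 9.78 and 9.66 on the morning controls and 9.58 and 9.69 on the primary arrays. The 6 arrays outside the PCA group lay between 9.51 and 9.78. The loss was 1.83-fold (log2 difference -0.87, SE 0.08, limma adjusted p = 0.00134). NUSAP1, which bundles microtubules around chromosomes, read 9.46 and 9.33 on the evening controls and 8.73 and 8.73 on the PCA arrays, with 9.63 and 9.53 on the morning controls and 9.21 and 9.47 on the primary arrays. It fell by 0.67 on the log2 scale (SE 0.10, limma adjusted p = 0.00637). HMMR at -0.49, CKAP2 at -0.41, DLGAP5 at -0.35 and PRC1, the bundler of midzone microtubules, at -0.25 had adjusted p values under 0.05 in the limma fit but less than the 1.5-fold limit, and TPX2, the activator of Aurora A, was at -0.23 (limma adjusted p = 0.0577).

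ECT2, the exchange factor that switches on RhoA at the cell equator so that the cytoplasm divides, ran the other way. It read 11.00 and 10.91 on the evening controls and 11.25 and 11.28 on the PCA arrays, and 11.18 and 11.17 on the morning controls against 11.37 and 11.42 on the primary arrays. In both exposures both exposed arrays were above both of their own controls. The log2 difference was 0.31 after the PCA pollutants (SE 0.07, 1.24-fold, limma adjusted p = 0.0224) and 0.22 after the primary pollutants (SE 0.07, limma adjusted p = 0.494). The first did not reach the fold limit, and its adjusted p exceeded 0.05 when any of the 4 arrays of the comparison was left out (0.0595 to 0.138). Against the morning controls the PCA arrays were at 0.09.

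The 4 genes tied to the anaphase-promoting complex lay close together after the PCA pollutants, with a median of -0.19 and none past the adjusted p limit. CDC20, the activator of the complex, was at -0.20, UBE2C, the ubiquitin-conjugating enzyme that works with it, at -0.15, PTTG1 (securin), a protein it destroys, at -0.18, and CDCA3 at -0.22. The chromosome structure genes had the lowest median of the 8 roles, -0.46, and all 4 were past the adjusted p limit. NCAPD2, a subunit of condensin I, which compacts mitotic chromosomes, read 10.61 and 10.60 on the evening controls and 9.93 and 9.85 on the PCA arrays, with 10.73 and 10.64 on the morning controls and 10.46 and 10.44 on the primary arrays. It fell by 0.72 on the log2 scale (SE 0.07, limma adjusted p = 0.00182), and NCAPG, of the same complex, was at -0.44. MKI67, the proliferation antigen that coats mitotic chromosomes, read 10.53 and 10.52 on the evening controls and 10.07 and 9.99 on the PCA arrays, with 10.61 and 10.60 on the morning controls and 10.60 and 10.62 on the primary arrays. The 6 MKI67 values outside the PCA group lay between 10.52 and 10.62, and the difference of -0.49 (SE 0.07, limma adjusted p = 0.00467) was short of 1.5-fold. TOP2A, the topoisomerase that untangles sister chromatids, read 11.42 and 11.34 on the evening controls, 10.94 and 11.03 on the PCA arrays, 11.51 and 11.46 on the morning controls and 11.36 and 11.54 on the primary arrays, a difference of -0.39 (SE 0.09, limma adjusted p = 0.0203).

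**Figure D3:**
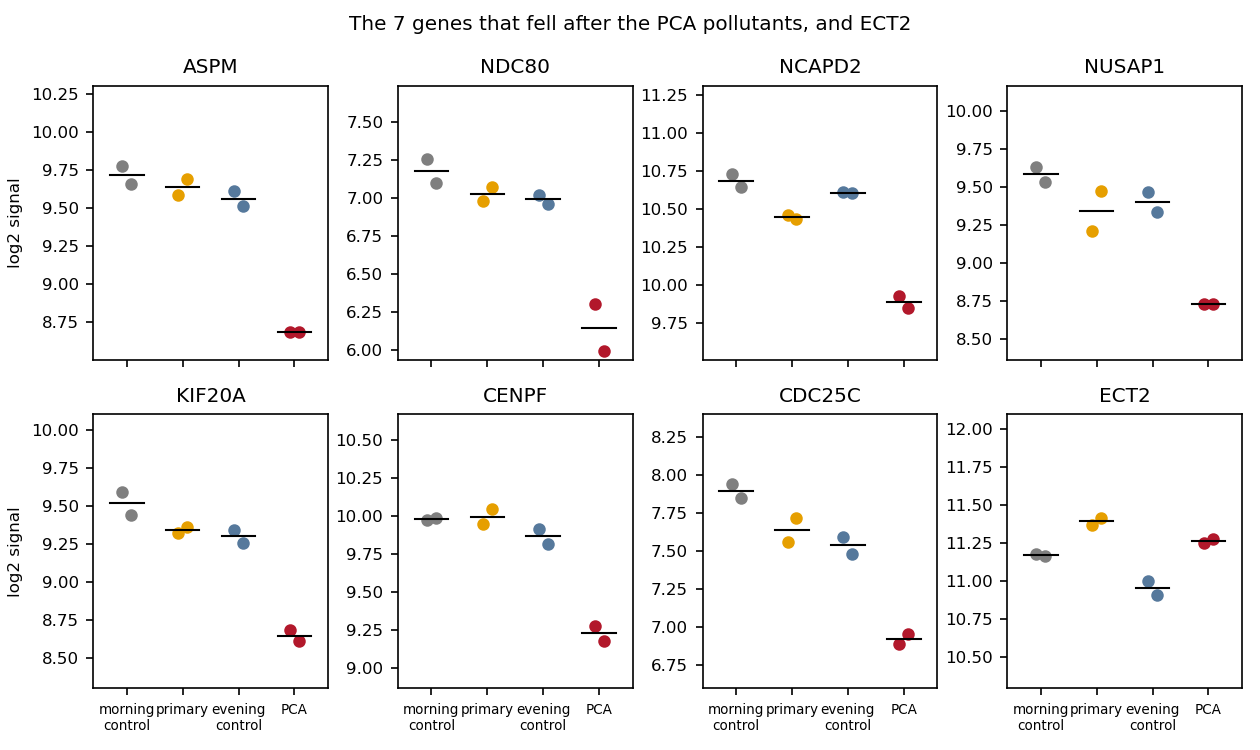
Log2 signal on each array (dots) and group means (lines) for the 7 genes that fell after the PCA pollutants and for ECT2. Each panel spans the same range of log2 units around its gene's mean. In the 7 panels both PCA values lie below the other 6, and in the ECT2 panel both exposed groups lie above their own controls.

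After the primary pollutants none of the 41 genes rose or fell in the limma fit, as was the case for every gene tested (0% of 17381 called in either direction). At an unadjusted p under 0.05, 5 of the 41 were lower (4.67% of all genes) and 1 was higher (3.29%). The 5 were HMMR at -0.29, CDC25C at -0.26, NUSAP1 and NCAPD2 at -0.24 each and PTTG1 at -0.23, and the 1 was ECT2. The methods used an analysis of variance with limits on p, q-value and fold. Run here on unadjusted p with the 1.5-fold limit and no q-value limit, it called 0 of the 41 and 14 of the 17381 genes. The study itself, from the same arrays, reported 19 genes as changed by the primary pollutants, none of them among the 41. The log2 difference was below 0 for 35 of the 41 (52.6% of all genes), and for 20 of the 41 once arrays were scaled to ribosomal protein genes. That scaling moved all genes upward, with a median of 0.086 over all genes and 0.00014 over the 41. The 2 primary arrays were both below both morning controls for 19 (21.7%) and both above for 1 (17%). The median was -0.09 over the 41 genes and -0.0072 over all genes, and the genes' 95% intervals together ran from -0.51 to 0.38. The log2 difference was 0.00 for MKI67 (95% interval -0.15 to 0.16), 0.01 for CENPF (-0.17 to 0.20) and 0.00 for PRC1.

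Among the unexposed cells, the G2 and M phase genes read lower on the evening control arrays than on the morning control arrays. The genes share these arrays, so their number is not a number of replicates. All 41 genes had a lower mean on the evening controls than on the morning controls, against 48.7% of all genes tested, and for 39 both evening arrays were below both morning arrays (19.7% of all genes, with 22.1% not overlapping in the other direction). The exceptions to the last count were FOXM1 and CDC20. No single gene was called (0% of 17310 genes in either direction, limma adjusted p = 0.999 for the 41 genes). At an unadjusted p under 0.05 there were 23 lower (2.18% of all genes) and 0 higher (2.91%). An analysis of variance on unadjusted p with the 1.5-fold limit, again without the methods' q-value limit, called 0 of the 41 and 2 of the 17310 genes. The median was -0.23 over the 41 genes and 0.0034 over all genes, with a range from -0.40 for PTTG1 to -0.01 for FOXM1. Scaling to ribosomal protein genes brought the median of the 41 to -0.15 and that of all genes to 0.088, and left 37 of the 41 below 0.

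The control difference and the PCA response share the evening controls, so they are set side by side without a measure of their relation. PTTG1 was at -0.40 between controls and at -0.18 after the PCA pollutants, BUB1 at -0.37 and -0.23, and BUB1B at -0.35 and -0.13. For these 3, as for 13 of the 41 in all, the value between controls was the larger in size, a contrast that was not tested. The value after exposure was the larger for the other 28, among them NCAPD2, at -0.08 between controls and -0.72 after the PCA pollutants, MKI67 at -0.08 and -0.49, CENPF at -0.11 and -0.64 and ASPM at -0.16 and -0.87. The choice of control decided how many genes were counted. Set against the morning controls, the PCA arrays had a median of -0.58 over the 41 genes, and 20 of the 41 fell (377 of 17470 genes over the array), CDK1 at -0.73 among them. Against the mean of both controls the median was -0.45 and 12 of the 41 fell (391 of 17470 genes). The primary arrays against the evening controls had a median of 0.15, and 4 of the 41 were below 0.

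**Figure D4:**
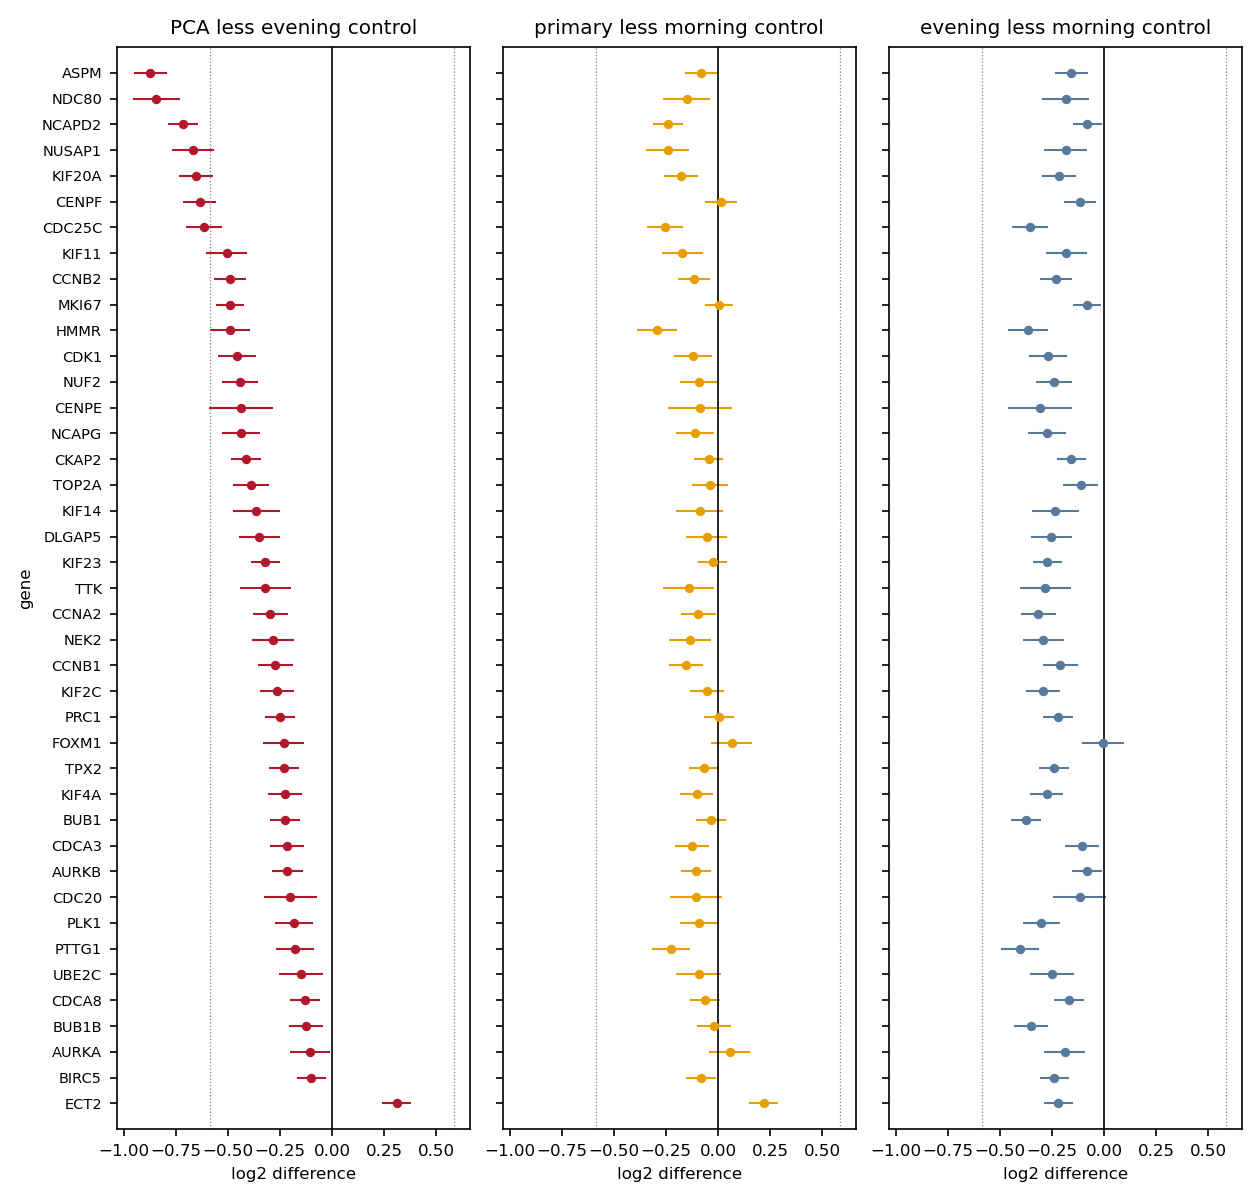
Log2 differences (points) with their standard errors (bars) for the 41 genes, ordered by the PCA response: PCA less evening control, primary less morning control and evening less morning control. Dotted lines mark 1.5-fold. The evening less morning points all lie below 0, and 7 PCA points lie past the lower dotted line.

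The test of the difference between both responses, the PCA response less the primary response, called 1 of the 41 genes lower (0.348% of 17540 genes) and 0 higher (0.0912%). The gene was ASPM, with a difference of -0.79 (SE 0.11, limma adjusted p = 0.0389), and its call was lost when any 1 of the 8 arrays was left out (adjusted p 0.0603 to 0.205). CENPF was at -0.65 (limma adjusted p = 0.0604) and NDC80 at -0.69 (limma adjusted p = 0.102). The difference was below 0 for 39 of the 41 genes (52.7% of all genes), with ECT2 at 0.09 and PTTG1 at 0.05 as the exceptions. At an unadjusted p under 0.05, 17 of the 41 were lower (11.4%) and 0 higher (6.2%). The median was -0.25 over the 41 genes and -0.013 over all genes.

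Of 78 further G2 and M phase genes with a probe set of their own, 2 fell after the PCA pollutants (2.56%, against 2.66% of all genes) and 1 rose (1.28% against 0.876%), shares near those of the array. Of the 78, 65 were below 0 (83.3%, against 50.3% of all genes), with a median of -0.17. Without the fold limit, 23 were lower at a limma adjusted p under 0.05 (29.5% against 14.1%) and 3 higher (3.85% against 5.72%). Both PCA arrays were below both evening controls for 49 (62.8% against 36.6%) and above them for 8 (10.3% against 31.7%). HMGB2, a chromatin protein, read 8.44 and 8.38 on the evening controls and 7.88 and 7.62 on the PCA arrays (-0.66, limma adjusted p = 0.00979). KIF20B, a kinesin of cytokinesis, was at 7.67 and 7.56 against 7.07 and 6.96 (-0.60, limma adjusted p = 0.0249). SPDL1, which brings dynein to kinetochores, rose, from 9.57 and 9.47 to 10.28 and 10.11 (0.68, limma adjusted p = 0.00546). Between controls 76 of the 78 were below 0, with a median of -0.18. Of 53 G1/S and DNA replication genes, which peak earlier in the cycle, none rose or fell after the PCA pollutants on the probe set used. The limma fit gave these genes a median of -0.04 with 30 below 0, and a median of -0.12 with 50 below 0 between controls. Both lists were counted on the probe set of highest mean signal for each gene. The study lists RFC1, of the 53, and TUBB4B (as TUBB2C), of the 78, as higher after the PCA pollutants, and WEE1, of the 78, as lower. The probe sets used here went from 9.39 and 9.36 to 9.14 and 9.09 for RFC1. For TUBB4B they went from 10.57 and 10.53 to 10.89 and 10.82, and for WEE1 from 8.54 and 8.55 to 8.31 and 8.29. Neither of these changes reached 1.5-fold, and the cause of the disagreements was not tested.

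**Figure D5:**
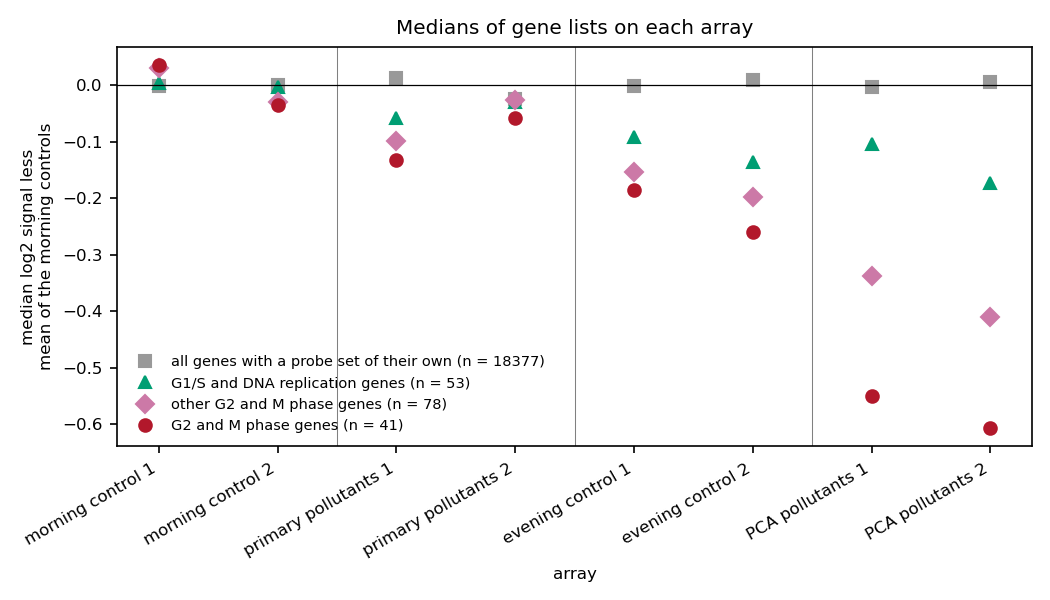
Median log2 signal less the mean of the morning controls on each array, for the 41 G2 and M phase genes (circles), 78 further G2 and M phase genes (diamonds), 53 G1/S and DNA replication genes (triangles) and all 18377 genes with a probe set of their own (squares). The circles stand at -0.19 and -0.26 on the evening controls and at -0.55 and -0.61 on the PCA arrays, while the squares stay near 0.

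Among 29 known regulators of these genes, 1 fell (3.45%, near the 2.66% of all genes) and none rose after the PCA pollutants, and the median was -0.08. The gene was TFDP2, a partner of E2F factors, with 9.41 and 9.43 on the evening controls and 8.55 and 8.6 on the PCA arrays (-0.84, limma adjusted p = 0.00261). RBL2, the p130 pocket protein of the DREAM repressor, read 9.29 and 9.18 against 8.73 and 8.88 (-0.43, limma adjusted p = 0.0154), which was under the fold limit. LIN54, the MuvB subunit that contacts the homology element, was at 7.98 and 8.02 against 7.83 and 7.79 (-0.20, limma adjusted p = 0.108). E2F1 was at 8.29 and 8.12 against 8.63 and 8.57 (0.39, limma adjusted p = 0.0452). CDKN1A (p21), an inhibitor of cyclin-dependent kinases, was at 8.13 and 8.08 against 8.22 and 8.15 (0.08, 0.595 for limma's adjusted p).

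Other features of the arrays moved with the PCA group. The standard deviation of log2 signals over all probe sets was 1.98 and 1.99 on the PCA arrays and 2.04 to 2.07 on the other 6. The 48 ribosomal protein genes had a median of -0.16 after the PCA pollutants. Of 16 short structured RNAs tested, 3 rose (against 0.876% of all genes), RNU11, RPPH1 and RMRP (1.88, 1.18 and 0.59 on the log2 scale). Their median was 0.34 over the 16. Of 10 epithelial markers, CDH1 (E-cadherin) alone fell (against 2.66% of all genes), from 10.35 and 10.35 on the evening controls to 9.29 and 9.19 (-1.11). The part of these features in the lower levels of the G2 and M phase genes was not tested.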

How the data were processed

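The genes and gene lists were chosen with earlier results of these data known. RNA was labelled with biotin and hybridised by the authors to Affymetrix Human Gene 1.0 ST arrays, and their deposited log2 signals, for 28869 probe sets, had been summarised and normalized by the authors with robust multi-array averaging (RMA) (Partek 6.4, per the submitters' processing notes). Gene symbols came from GEO's platform annotation, with 19310 probe sets of 1 symbol, 1752 of several and 7807 of none. A single symbol was replaced by the RefSeq symbol of the same gene identifier where RefSeq held that identifier. The 4 group means were fitted over all 8 arrays with limma 3.58.1 in R 4.3.3 (lmFit, eBayes, 4 residual degrees of freedom), and p-values were Benjamini-Hochberg adjusted over all probe sets with a signal of at least 30 on at least 1 array of the comparison (25264 after the PCA pollutants). A gene was called at adjusted p under 0.05 and 1.5-fold. Lists are described by counts and medians, without a test. Values by array are given for the called genes, for CDK1, CCNB1, PLK1, TOP2A and MKI67 and for the 2 genes with the highest PCA log2 difference; from the other lists, called genes and CDKN1A, RBL2, LIN54 and E2F1 are named. The fit was tested on simulated arrays. Alternatives were other filters, scalings, tests, controls, a replicate block and each array left out. The number of arrays limits the precision. Protein sequences were not analysed here.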

Additional observations from a re-analysis of the deposited data

Results flagged for a closer look

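1 result differed between both exposures by a test of the difference itself. For ASPM, the PCA response exceeded the primary response in size, with a difference of -0.79 in log2 units (SE 0.11, limma adjusted p = 0.0389). It was -0.87 after the PCA pollutants and -0.08 after the primary pollutants, each from 2 arrays against 2. The call on the difference depended on the processing. It was lost with no signal filter, ribosomal protein scaling, cyclic loess normalization, the adjusted analysis of variance or the replicate block.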

How the results depend on the processing

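The PCA count of 7 genes (464 lower calls over all genes) was 4 with quantile normalization (411), 3 with cyclic loess (381), 2 with arrays scaled to ribosomal protein genes (191), 21 with no fold limit (20 of them lower, against 2472), 0 with limma's treat against the 1.5-fold limit (21, while the analysis of variance called 7 of the members), 20 with the morning controls (377), 12 with both controls averaged (391), and 6 to 7 with 1 array left out. The other alternatives left the same 7. The PCA median of -0.32 was -0.38 with arrays centred on their medians, -0.17 scaled to ribosomal protein genes, -0.22 with quantile normalization, -0.19 with cyclic loess, -0.58 with the morning controls, -0.45 with both controls averaged and -0.38 to -0.25 with 1 array left out. Cyclic loess and the averaged controls were chosen after seeing the data. The primary median of -0.09 became 0.00014 scaled to ribosomal protein genes (0.086 over all genes), 0.15 with the evening controls and 0.027 with both controls averaged. It ran from -0.13 to -0.06 with 1 array left out. The control median of -0.23 became -0.15 with that scaling (0.088 over all genes) and ran from -0.26 to -0.19 with 1 array left out. For the difference of responses, the count of 1 stood beside 77 calls over all genes. It became 0 with no filter (16 over all genes), ribosomal protein scaling (57), cyclic loess (65) and the adjusted analysis of variance (1). It was also 0 with treat (0) and the replicate block (2). It was 3 (ASPM, CENPF and NDC80) with a minimum signal of 100 (247), the trended and robust prior (278) or the unadjusted analysis of variance (315). With the controls exchanged it was 7 (33). The median difference of responses, -0.25, was -0.20 scaled to ribosomal protein genes (0.039 over all genes), -0.19 with quantile normalization and -0.15 with cyclic loess. It was -0.74 with the controls exchanged and -0.30 to -0.19 with 1 array left out. The cause of these shifts was not tested. Over all genes, 464 of 617 PCA calls were lower, against 669 of 773 with centred arrays and 191 of 641 with ribosomal protein scaling.

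The replicate numbers gave no pairing (correlations of the difference between replicate 1 and replicate 2 across groups were -0.12 to 0.05 over 25412 probe sets). With the replicate block the PCA count stayed at 7, those of the primary and control comparisons at 0, and the medians were as without it. With 2 arrays a group and 4 residual degrees of freedom, the median SE of a PCA log2 difference was 0.095.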
